A study of Mus musculus with 16 samples.

Results

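The E2F transcription factors and the pocket proteins that bind them were followed through the cortices and striata of 10-day-old mice with a neuronal deletion of Trrap. The set was fixed by gene symbol and holds 10 genes, E2f1, E2f2, E2f3, E2f4, E2f5, E2f6, E2f8, Rb1, Rbl1 and Rbl2, of the 53801 genes in the count table. All 10 were found, and all 10 passed the filter on low counts in every comparison. RNA-seq was run on 16 libraries, with 4 control and 4 Trrap-FBΔ libraries for each tissue. On GRCm38, the members that results turn on most are E2f1 (ENSMUSG00000027490, chr2:154559407-154569892, minus strand), E2f2 (ENSMUSG00000018983, chr4:136172394-136196057, plus), E2f3 (ENSMUSG00000016477, chr13:29906575-29986063, minus), E2f8 (ENSMUSG00000046179, chr7:48866429-48881596, minus) and Rbl1 (ENSMUSG00000027641, chr2:157145893-157204534, minus). Controls were Trrap Fl/+ and Trrap-FBΔ mice were Trrap Fl/Fl. All mice carried the Camk2-Cre transgene, so the controls also had a floxed allele together with Cre, and all were of the C57BL6/J-129sv background and 10 days of age. In this model Cre is driven in pyramidal neurons of the forebrain, so that other cells of the dissected tissue, glia and dividing precursors among them, are not the cells meant to lose Trrap. The libraries came from 9 mice, 5 female and 4 male, and 7 of these mice gave both tissues. Sex was not balanced between the genotypes. Control cortex came from 2 females and 2 males and control striatum from 1 female and 3 males. Trrap-FBΔ libraries came from 3 females and 1 male in each tissue. Values of single libraries are given in order of mouse number, which is 55, 58, 63 and 64 for cortex control, 58, 63, 64 and 65 for striatum control, and 57, 59, 60 and 61 for Trrap-FBΔ in both tissues.

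E2F factors bind short GC-rich sequences in the promoters of genes for DNA replication and mitosis, most of them as dimers with a DP protein encoded by Tfdp1 or Tfdp2. E2F1, E2F2 and E2F3 are known as activators, E2F4, E2F5 and E2F6 as repressors, and E2F7 and E2F8 as atypical repressors that bind DNA without a DP partner. The pocket proteins RB1, p107 (Rbl1) and p130 (Rbl2) hold E2F factors in check until cyclin-dependent kinases phosphorylate them. With E2F4 or E2F5 and the MuvB proteins, p107 and p130 form the DREAM complex, which silences cell cycle genes in resting cells such as neurons. TRRAP is a scaffold subunit of histone acetyltransferase complexes that E2F and MYC proteins recruit to promoters, which makes the genes of this family a group to look at when Trrap is deleted.

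Several E2F genes are themselves E2F targets, and the promoters of the members whose transcripts changed are therefore shown. RefSeq windows of 300 bases on GRCm38.p6, from 250 bases before a transcription start to 50 after it, were at hand for 7 of the 10 members (E2f1, E2f2, E2f3, E2f6, E2f8, Rbl1 and Rbl2) and for the related gene E2f7. Capitals mark each match to an E2F word read on either strand, where the words are TTCCCGC and, as further forms of the consensus, TTGGCGC as well as TTCGCGC and also the form TTGCCGC. The windows shown lie on the minus strand at chr13:29986014-29986313 (E2f3, the upstream of its starts), chr7:48881547-48881846 (E2f8) and chr2:157204485-157204784 (Rbl1), and on the plus strand at chr4:136172024-136172323 (E2f2) and chr10:110745189-110745488 (E2f7).
E2f3: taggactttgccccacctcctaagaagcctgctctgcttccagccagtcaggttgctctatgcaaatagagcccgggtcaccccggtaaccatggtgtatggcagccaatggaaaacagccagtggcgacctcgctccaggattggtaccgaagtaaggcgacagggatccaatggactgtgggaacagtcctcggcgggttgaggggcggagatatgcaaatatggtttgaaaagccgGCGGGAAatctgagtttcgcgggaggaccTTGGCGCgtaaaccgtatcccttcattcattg
E2f8: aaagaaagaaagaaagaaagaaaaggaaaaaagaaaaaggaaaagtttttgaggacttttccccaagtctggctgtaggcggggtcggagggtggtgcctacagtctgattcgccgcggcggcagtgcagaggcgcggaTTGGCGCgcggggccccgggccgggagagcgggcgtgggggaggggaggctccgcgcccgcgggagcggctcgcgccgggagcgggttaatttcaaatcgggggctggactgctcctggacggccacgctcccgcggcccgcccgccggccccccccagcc
Rbl1: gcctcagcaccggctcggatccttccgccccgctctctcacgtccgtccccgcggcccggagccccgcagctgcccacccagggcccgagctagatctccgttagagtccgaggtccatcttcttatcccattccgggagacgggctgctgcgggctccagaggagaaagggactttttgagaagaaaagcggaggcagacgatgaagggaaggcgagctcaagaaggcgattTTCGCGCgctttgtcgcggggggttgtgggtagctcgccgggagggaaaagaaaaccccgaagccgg
E2f2: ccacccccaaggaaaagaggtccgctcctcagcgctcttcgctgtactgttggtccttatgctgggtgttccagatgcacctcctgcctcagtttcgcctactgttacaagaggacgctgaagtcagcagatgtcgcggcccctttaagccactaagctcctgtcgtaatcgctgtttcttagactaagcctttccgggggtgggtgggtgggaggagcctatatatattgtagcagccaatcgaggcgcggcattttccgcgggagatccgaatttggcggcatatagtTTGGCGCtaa
E2f7: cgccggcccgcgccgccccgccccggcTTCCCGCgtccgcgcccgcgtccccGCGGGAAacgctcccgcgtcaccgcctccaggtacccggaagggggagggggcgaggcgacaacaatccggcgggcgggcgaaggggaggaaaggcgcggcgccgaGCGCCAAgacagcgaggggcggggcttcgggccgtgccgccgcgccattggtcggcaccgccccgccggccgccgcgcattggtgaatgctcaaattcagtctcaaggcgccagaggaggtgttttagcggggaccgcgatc
The E2f3 window held 2 E2F words, at positions -11 to -5 and 18 to 24 from the start site. Each of the E2f8, Rbl1 and E2f2 windows held 1, and that of E2f7 held 3. The single word of E2f8 overlapped a CCAAT box (CCAAT on the minus strand). None was found in the windows of E2f6 and Rbl2 or in the second windows of E2f2 and E2f3. The E2f1 window, also without a match, begins its transcript 294 bases downstream of the nearest coding start in the GENCODE annotation and thus does not cover that start, and the start of the E2f2 window lies 120 bases upstream of its nearest one. Over all 32544 windows of the table, 9.64% held an E2F word and 1.19% held at least 2. The CHR element of mitotic genes, TTTGAA on either strand, was found in windows of 4 of the 7 members, E2f3 (-23 to -18), E2f8 (-20 to -15), Rbl2 (-201 to -196) and the second window of E2f2 (-31 to -26), and in 17.8% of all windows. A match describes letters, not binding.

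Library totals were between 28743866 and 48761429 counted reads, with a median of 41482110, so that the least abundant member, E2f8, still had 64 to 151 reads in every library. Trrap itself did not separate the groups: its level in CPM, counts scaled to library size with TMM factors, was 173, 156, 136 and 147 in control and 121, 137, 135 and 146 in Trrap-FBΔ cortex (log2 fold change -0.18, adjusted p = 0.0826, edgeR). The striatum gave 151, 140, 150 and 142 in controls and 148, 135, 144 and 138 in Trrap-FBΔ (adjusted p = 0.519). A count over the whole gene sums all its exons and all cells of the tissue, and the groups are used here as labelled. The paper reports that Trrap was efficiently deleted at this age, with western blots of the forebrain and qPCR. Summed markers of excitatory neurons separated the control tissues, but those of striatal projection neurons did not. The 8 markers of excitatory neurons summed to 1480 to 1870 CPM in control cortex and to 640 to 797 in the libraries labelled striatum. The 8 markers of striatal projection neurons, by contrast, summed to 254 to 695 CPM in control cortex and to 217 (mouse 58) to 1120 (mouse 64) in control striatum. Of these, only Tac1 was called higher in striatum (1 of 8). The control cortices of mice 58 and 63, at 665 and 695 CPM, were above the control striata of mice 58, 63 and 65 (217, 491 and 464 CPM). Between the Trrap-FBΔ tissues, 4 of the 8 were called higher in striatum and 1 lower, beside 27.4% of all genes in either direction. Slc17a6, the glutamate transporter of subcortical neurons, was 2.11 higher on the log2 scale in control striatum (adjusted p = 2.0e-05).

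In the Trrap-FBΔ cortex, E2f8, Rbl1 and E2f3 fell and E2f2 rose. The test called 3 of the 10 members lower, where 17.6% of the 18268 genes tested were called lower, and 1 of 10 higher, where 15.7% of all genes were. In the striatum, E2f3, E2f8 and E2f5 fell and no member rose, so that 3 of 10 were called lower against 15.8% of the 18872 genes tested, and 0 of 10 higher against 14.4%. The median log2 fold change of the members was 0.010 for cortex and -0.15 for striatum, beside 0.0010 and -0.0055 for all genes tested. With 1 library left out, the cortical count was 3 without control mouse 55 or 64 or Trrap-FBΔ mouse 57, 60 or 61, where E2f2 was not called. It was 4 without the control libraries of mouse 58 or mouse 63, which had the highest sums of striatal projection neuron markers among control cortices, or without Trrap-FBΔ mouse 59. The striatal count was 3 without control mouse 58, 2 without any other single library and 1 with sex as a covariate. E2f3 and E2f8 were called lower in both tissues, but the 4 Trrap-FBΔ mice were the same in both and 3 control mice gave both tissues, so the tissues are no independent repeats.

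**Figure D1:**
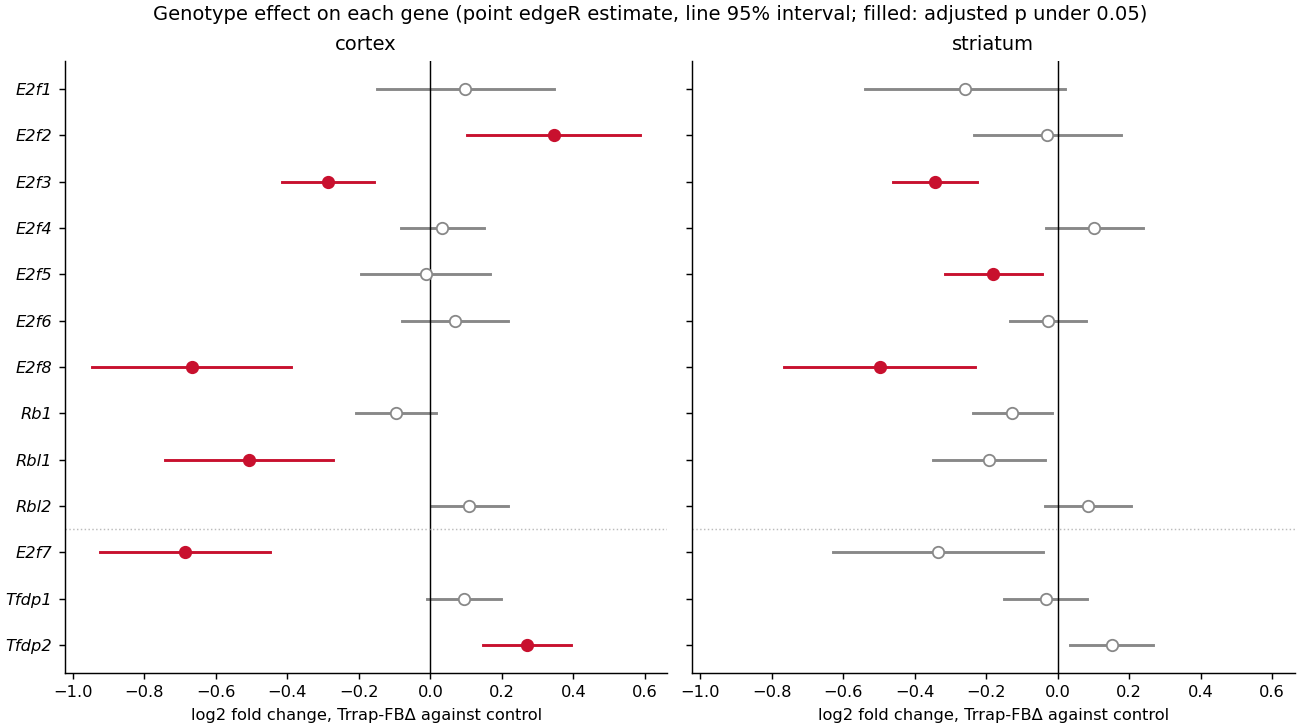
Log2 fold change of each member, and of E2f7, Tfdp1 and Tfdp2 below the dotted line, in Trrap-FBΔ against control, for the cortex (left) and the striatum (right), with 4 libraries per group. Points are edgeR estimates, lines 95% intervals, and filled points passed an adjusted p of 0.05. E2f3 and E2f8 lie to the left of 0 in both panels, E2f2 to the right only in the cortex.

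Cell type markers moved in the same libraries, and in bulk tissue fewer cells of a type cannot be told apart from less RNA per cell. Over all genes tested, 17.6% were called lower in the cortex and 15.8% in the striatum. Immature neuron markers were lower for 7 of 8 genes in the cortex (4610 to 6180 summed CPM in controls, 2360 to 2930 in mutants) and 6 of 8 in the striatum (3350 to 3850, 1870 to 2200). Since neurons are the cells targeted, a fall of these genes within the targeted neurons cannot be told apart from a change in other cells. Oligodendrocyte precursor markers, of a cell type that still divides at this age, were lower for 5 of 6 genes in the cortex (551 to 636 CPM, 444 to 508) and 3 of 6 in the striatum (737 to 1020, 650 to 788). Microglial markers were lower for 7 of 7 and 6 of 7 genes (347 to 394 against 250 to 317 CPM in the cortex, 284 to 343 against 235 to 252 in the striatum). Endothelial markers were lower for 6 of 6 genes in the cortex (188 to 234, 154 to 174) and 1 of 6 in the striatum (155 to 238, 150 to 191), and oligodendrocyte markers for 6 of 6 in the cortex (1760 to 3120, 1290 to 2000) and 0 of 6 in the striatum (3150 to 9340, 3920 to 6880). None of the genes in these lists was at 0 throughout a group. The counts of endothelial cells and both oligodendrocyte stages moved with single libraries. In the striatum, 5 of 6 endothelial markers were called lower without control mouse 63, and 0 without control mouse 58 or 64, without Trrap-FBΔ mouse 57, 59 or 60, or with sex as a covariate. The precursor count in the striatum was 5 without control mouse 63 and 2 without Trrap-FBΔ mouse 57 or 60 or with sex as a covariate. The oligodendrocyte count in the cortex was 3 with DESeq2 or without mouse 58, 63, 59, 60 or 61 and 0 with all 16 libraries in a fit. The part of these cells in the falls of E2f8, E2f3 and Rbl1, and of the cyclins and mitotic genes counted with them, was not tested.

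Of the activators, E2f3 was the most abundant and the one that changed in both tissues. Its level was 36.5, 35.1, 34.2 and 35.6 CPM in control and 27.0, 31.7, 28.4 and 28.9 CPM in Trrap-FBΔ cortex. Each mutant library lay below each control, and the log2 fold change was -0.29 ± 0.059 (SE, adjusted p = 0.00367), or 0.820 of the control level. In the striatum the levels were 29.1, 29.0, 32.5 and 29.9 CPM in controls and 23.6, 23.6, 23.5 and 24.2 CPM in Trrap-FBΔ. The 4 mutant striata were within 1 CPM of each other and again below all controls (-0.34 ± 0.053, adjusted p = 0.00128). E2f3 remained called under every alternative in both tissues. The promoter window shown for it above is the one that carried E2F words on both sides of the start.

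E2f2, the activator with the lowest level in the cortex, moved the other way in the cortex. It was 3.77, 4.05, 3.92 and 3.36 CPM in controls and 5.36, 4.08, 5.02 and 4.71 CPM in Trrap-FBΔ cortex, where the lowest mutant library (mouse 59) was just above the highest control (mouse 58). The log2 fold change was 0.34 ± 0.11 (SE, adjusted p = 0.0324). The call was lost with sex as a covariate (adjusted p = 0.0549) and without control mouse 55 (0.0534) or 64 (0.0902) or Trrap-FBΔ mouse 57 (0.079), 60 (0.0812) or 61 (0.0533), all with fold changes of the same sign. In the striatum the groups overlapped, at 8.57, 6.64, 7.58 and 7.73 CPM in controls and 7.84, 7.37, 7.84 and 6.82 CPM in Trrap-FBΔ (-0.028, 95% interval -0.23 to 0.18, adjusted p = 0.843).

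E2f1, the E2F with which TRRAP is known to interact, did not pass the test in either tissue. Control cortices had 10.8, 12.0, 14.8 and 12.8 CPM and Trrap-FBΔ cortices 15.7, 11.1, 13.6 and 13.5 CPM. These ranges overlapped, and the 95% interval of the log2 fold change ran from -0.15 to 0.34 (adjusted p = 0.537). Control striata had 5.10, 6.81, 7.05 and 5.34 CPM and Trrap-FBΔ striata 5.67, 4.44, 5.08 and 5.10 CPM. Here too the groups overlapped (log2 fold change -0.26, interval -0.54 to 0.019, adjusted p = 0.145).

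The largest fall among the members was that of E2f8, an atypical repressor that limits E2F target genes late in S phase. In the cortex 4 tightly grouped controls at 2.92, 2.98, 2.96 and 2.82 CPM stood against Trrap-FBΔ libraries at 2.12, 1.79, 1.93 and 1.52 CPM. The groups were apart, with 0.629 of the control level left (log2 fold change -0.67 ± 0.13, adjusted p = 0.00224). These levels rest on 80 to 126 reads per control and 64 to 90 per mutant library. In the striatum E2f8 was at 3.40, 2.65, 3.13 and 3.43 CPM in controls and at 2.06, 2.15, 2.17 and 2.53 CPM in Trrap-FBΔ. Again no library overlapped (-0.50 ± 0.12, adjusted p = 0.0116), although the striatal call was lost with sex as a covariate (-0.43, adjusted p = 0.0598). Its partner E2f7, which is not among the 10 members, was at 2.96, 2.70, 2.96 and 2.90 CPM in control and 1.77, 1.70, 1.8 and 1.86 CPM in Trrap-FBΔ cortex and fell there by 0.69 on the log2 scale (SE 0.11, adjusted p = 0.000764). In the striatum its log2 fold change was -0.33 ± 0.13 (adjusted p = 0.0817), with levels of 2.14, 2.25, 2.66 and 2.46 CPM in controls and 1.98, 1.52, 1.89 and 2.14 CPM in Trrap-FBΔ. All mutant striata were below all control striata for E2f7, by as little as 2.137 against 2.142 CPM, and the adjusted p was 0.0300 when all 16 libraries shared a fit.

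The only pocket protein gene called between genotypes was Rbl1, which encodes p107, and it was called in the cortex alone. Rbl1 is kept low in resting cells and is itself a target of E2F. The level was 7.53, 5.84, 5.56 and 5.84 CPM in control and 4.56, 4.33, 4.20 and 4.25 CPM in Trrap-FBΔ cortex. The 4 mutant libraries were close to each other and below all controls, and control mouse 55 stood above the other controls. The log2 fold change of -0.51 ± 0.11 (adjusted p = 0.00408) kept its call without mouse 55 and without any other single library. In the striatum Rbl1 was at 8.28, 7.91, 7.78 and 8.36 CPM in controls and 6.97, 7.50, 7.14 and 6.70 CPM in Trrap-FBΔ. The groups did not overlap there either, and the difference of -0.19 ± 0.071 narrowly missed the threshold (adjusted p = 0.0631).

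Rb1 and Rbl2, the more abundant pocket protein genes, passed the test in neither tissue. Rb1 was 78.0, 73.4, 73.5 and 78.4 CPM in control and 71.4, 71.2, 75.2 and 65.9 CPM in Trrap-FBΔ cortex, with an overlap between the groups (log2 fold change -0.10, adjusted p = 0.166). In the striatum its controls, at 73.4, 70.5, 66.4 and 68.6 CPM, were all just above the mutants at 63.2, 66.4, 65.6 and 60.3 CPM (-0.13, 95% interval -0.24 to -0.017, adjusted p = 0.0772), the lowest control at 66.38 and the highest mutant at 66.36 CPM. Rbl2, which encodes p130, the pocket protein of resting cells, was 49.4, 49.0, 52.2 and 50.4 CPM in control and 52.7, 58.4, 53.0 and 53.0 CPM in Trrap-FBΔ cortex. All mutant cortices were above the controls, by 0.11 on the log2 scale (interval 0.0018 to 0.22, adjusted p = 0.108). In the striatum the ranges overlapped, at 50.6, 53.4, 56.8 and 55.8 CPM and 55.6, 60.8, 54.4 and 59.1 CPM (adjusted p = 0.267). Counted by overlap alone, 2 members (E2f2 and Rbl2) were higher in every mutant cortex and 3 (E2f3, E2f8 and Rbl1) lower, beside 16.0% and 16.7% of all genes. In the striatum no member was higher in every mutant library and 5 (E2f3, E2f5, E2f8, Rb1 and Rbl1) were lower, beside 15.6% and 16.0% of all genes.

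Among the repressors, E2f4 and E2f6 did not pass the test, and E2f5 did so only in the striatum. E2F4 and E2F5 are the partners of p107 and p130 in the DREAM complex, and E2F6 acts with Polycomb proteins without a pocket protein. E2f4 was 30.5, 31.2, 28.9 and 30.5 CPM in control and 29.6, 31.0, 30.6 and 32.6 CPM in Trrap-FBΔ cortex, with 25.6, 23.8, 26.8 and 22.7 CPM and 26.6, 25.9, 26.3 and 27.4 CPM in the striatum. The 95% intervals of its log2 fold change, -0.083 to 0.15 and -0.033 to 0.24, leave out a fall of the size seen for E2f3 in either tissue. E2f6 was 20.3, 24.2, 21.2 and 22.7 CPM in control and 24.7, 23.4, 22.8 and 21.9 CPM in mutant cortex, and 27.1, 26.1, 26.2 and 27.1 CPM and 26.6, 25.8, 26.8 and 25.2 CPM in the striatum. Its intervals were -0.080 to 0.22 and -0.13 to 0.079, and its groups overlapped in both tissues. E2f5 was 15.1, 13.7, 14.4 and 13.5 CPM in control and 16.0, 12.4, 14.1 and 13.6 CPM in mutant cortex (log2 fold change -0.012, adjusted p = 0.923). In the striatum it was 15.5, 17.4, 16.7 and 16.2 CPM in controls and 13.9, 15.2, 14.2 and 14.8 CPM in Trrap-FBΔ, a small fall of 0.18 on the log2 scale (SE 0.061, adjusted p = 0.0473). This call did not hold without control mouse 63, 64 or 65 or any Trrap-FBΔ mouse (57, 59, 60 or 61), where the adjusted p was 0.0591 to 0.127, nor with sex as a covariate (0.0559), upper-quartile scaling (0.0882), no filter (0.145) or all 16 libraries together (0.0575).

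**Figure D2:**
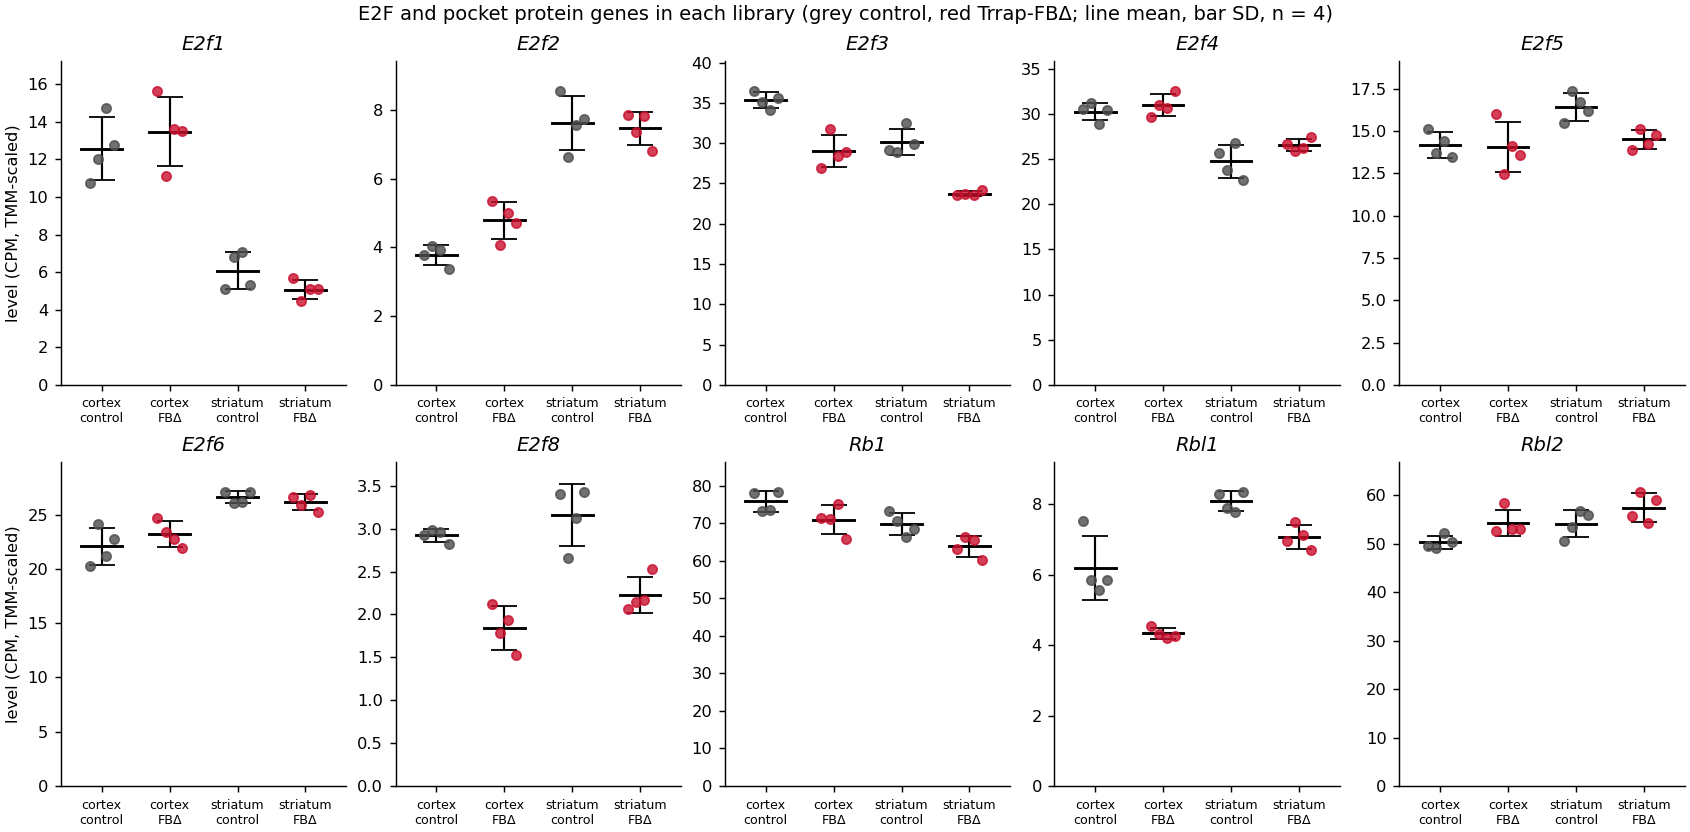
Level of each of the 10 members in CPM (linear axis from 0, TMM-scaled over all 16 libraries) in the 4 groups, 1 point per library, with the mean (line) and SD (bar), n = 4. E2f8 and E2f3 are lower in every mutant library of both tissues, Rbl1 is too, and E2f1 and E2f2 differ more between tissues than between genotypes.

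The DP partners, which E2F1 to E2F6 need to bind DNA, were at hand in all libraries. Tfdp2 rose in the cortex from 28.4, 31.6, 32.4 and 32.2 CPM to 38.2, 38.4, 37.8 and 36.1 CPM, with no overlap (0.27 ± 0.056 on the log2 scale, adjusted p = 0.00373). In the striatum it was 31.3, 32.8, 34.7 and 34.5 CPM in controls and 38.0, 37.9, 35.9 and 36.3 CPM in mutants, also without overlap, and the adjusted p of 0.0502 lay at the threshold. It was called there with RLE (0.0481) or upper-quartile scaling (0.0313), DESeq2 (0.0451) or all 16 libraries in a fit (0.0314). It was not called with sex as a covariate, without the filter or with any single library left out. Tfdp1 passed in neither tissue (cortex 0.094, adjusted p = 0.150, striatum -0.034, adjusted p = 0.661).

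Whether the genotype effect differed between the tissues was asked with an interaction term over all 16 libraries. The test called 85 of 19438 genes (0.437%), with 2347 at an unadjusted p under 0.05, and 0 of the 10 members. With DESeq2 415 genes were called, with the mouse as a replicate block 219, and again 0 members with either. The striatal minus the cortical effect was -0.37 for E2f2 (95% interval -0.67 to -0.078, unadjusted p = 0.0162, adjusted p = 0.276, edgeR). For Rbl1 it was 0.31 (0.057 to 0.57, unadjusted p = 0.0195, adjusted p = 0.291, edgeR). The rise of E2f2 and the fall of Rbl1 in the cortex are thus not shown to be absent from the striatum. For E2f3 the difference was -0.057 (-0.22 to 0.10) and for E2f8 0.17 (-0.18 to 0.52).

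Within a library, levels of different genes were compared as CPM per kb of exon. In control cortex Rb1 (12.6 ± 0.460, SD, n = 4) and E2f4 (12.3 ± 0.400) led and overlapped each other, E2f5 (7.96 ± 0.423) followed alone, then Rbl2 (6.65 ± 0.183) and E2f3 (6.51 ± 0.182), which overlapped. E2f1 (3.99 ± 0.530) and E2f6 (3.90 ± 0.302) overlapped as well, and Rbl1 (1.03 ± 0.150), E2f2 (0.773 ± 0.0612) and E2f8 (0.537 ± 0.0134) closed the order without overlap. By their means, Rb1, E2f4, E2f5 and Rbl2 were thus above every activator. In Trrap-FBΔ cortex E2f4 and Rb1 overlapped, as did E2f5 (7.88 ± 0.837) and Rbl2 (7.18 ± 0.365), E2f3 (5.34 ± 0.367) came down to overlap E2f1 (4.28 ± 0.588), which overlapped E2f6, and E2f2 (0.981 ± 0.112) and Rbl1 (0.723 ± 0.0259) changed places. In control striatum the order was Rb1 (11.6 ± 0.492), E2f4 (10.1 ± 0.746), E2f5 (9.22 ± 0.458), Rbl2 (7.17 ± 0.368), E2f3 (5.55 ± 0.297), E2f6 (4.70 ± 0.102), E2f1 (1.93 ± 0.316), E2f2 (1.56 ± 0.162), Rbl1 (1.35 ± 0.0470) and E2f8 (0.580 ± 0.0663). There E2f4 overlapped E2f5, E2f1 overlapped E2f2, and E2f2 overlapped Rbl1. In Trrap-FBΔ striatum E2f4 (10.8 ± 0.262) and Rb1 (10.6 ± 0.453) overlapped at the top, and E2f5 overlapped Rbl2, E2f6 (4.61 ± 0.130) overlapped E2f3 (4.37 ± 0.0574), and E2f1 overlapped E2f2.

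Between the control tissues, E2f1 and E2f2 had the largest differences of the 10 members. Cell type markers differed as well. Oligodendrocyte and precursor markers were higher in striatum for 6 of 6 genes each (median log2 differences 1.33 and 0.63). Excitatory neuron markers were lower for 7 of 8 (-1.84) and immature neuron markers for 6 of 8 (-0.444). Of all genes, 20.3% were called higher and 20.1% lower. The part of these cells in the tissue differences of the members was not tested. E2f1 was 12.6 ± 1.67 CPM in control cortex and 6.08 ± 0.995 CPM in control striatum (mean ± SD, n = 4), and E2f2 3.77 ± 0.298 and 7.63 ± 0.789 CPM. E2f1 was thus lower in striatum by 1.05 on the log2 scale (SE 0.13, adjusted p = 0.000130, edgeR) and E2f2 higher by 1.02 (SE 0.11, adjusted p = 5.4e-05, edgeR). No cortical library overlapped a striatal one for either gene. Per kb of exon, control cortex had 5.19 ± 0.778 (SD, n = 4) times as much E2f1 as E2f2 and control striatum 1.26 ± 0.312 times. In Trrap-FBΔ the ratios were 4.35 ± 0.156 and 1.05 ± 0.105. Of the summed level of the 3 activators, E2f3 made up 57.8% ± 3.40 in control and 50.5% ± 5.04 in Trrap-FBΔ cortex, and 61.4% ± 1.03 and 58.3% ± 1.84 in the striatum (SD, n = 4 each).

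**Figure D3:**
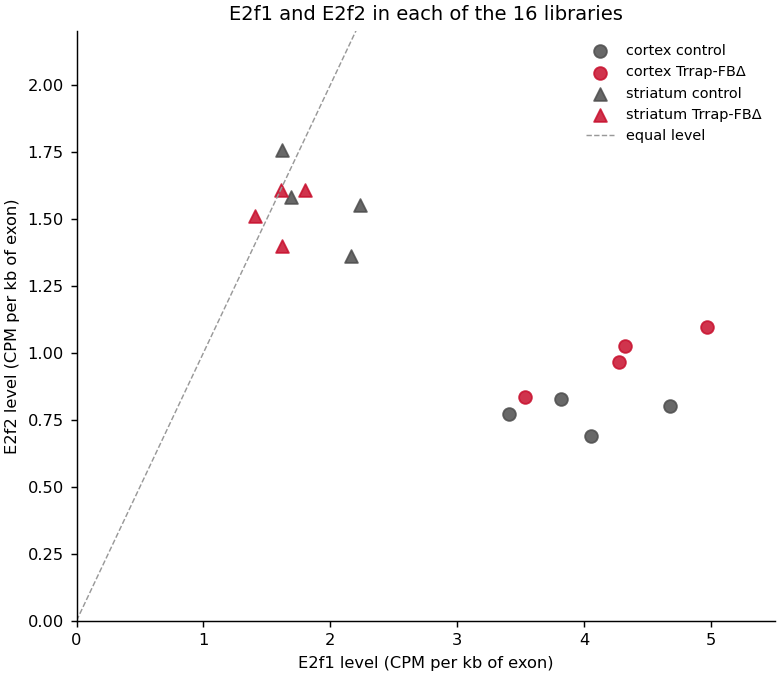
E2f1 (horizontal) against E2f2 (vertical), both in CPM per kb of exon, in each of the 16 libraries, with circles for cortex, triangles for striatum, grey for control and red for Trrap-FBΔ, and a dashed line where both are equal. Striatal libraries lie at the dashed line or close to it, cortical ones far to its right, where E2f1 exceeds E2f2 by 4.21 to 5.89 times.

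Between control tissues, Rbl1 (0.39), E2f6 (0.27) and E2f5 (0.22) were also higher in striatum, and E2f4 (-0.29) and E2f3 (-0.23) lower, as log2 differences. This made 4 of 10 members higher and 3 lower, where 20.3% and 20.1% of all genes were called. The call for E2f5 was lost without the filter on low counts (adjusted p = 0.0601) and without the cortex library of mouse 58 (0.0735) or 64 (0.0823) or the striatum library of mouse 64 (0.055). In Trrap-FBΔ mice 3 members were higher in striatum, Rbl1 (0.70), E2f2 (0.64) and E2f6 (0.17), and 4 lower, E2f1 (-1.41), E2f3 (-0.29), E2f4 (-0.22) and Rb1 (-0.15), against 27.4% of all genes in either direction. The Rb1 call was lost with upper-quartile scaling (0.187) and without the cortex library of mouse 60 (0.0739) or the striatum library of mouse 61 (0.0664). The E2f6 call was lost without the cortex library of mouse 61 (0.0586) or the striatum library of mouse 57 (0.0504). These tissue comparisons use the same libraries as the genotype comparisons above, and the direction of E2f1, E2f2, E2f3, E2f4 and Rbl1 was kept and called under every alternative in both genotypes.

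Upstream of the pocket proteins, the D-type cyclins Ccnd1 and Ccnd2 fell. The cyclins and kinases that act on pocket proteins were a list of 8 genes. Of these, 4 were called lower and 0 higher in each tissue, the same genes, Ccnd1, Ccnd2, Cdk6 and Cdk2. Over all genes, 17.6% were called lower in the cortex and 15.8% in the striatum. The list count was 3 in the cortex without mouse 57 or 59. It was 3 in the striatum without mouse 64, 57, 59 or 60 or with sex as a covariate. Ccnd2, which drives the division of neural progenitors, was 169 ± 4.93 CPM in control and 111 ± 4.21 CPM in Trrap-FBΔ cortex (-0.60 ± 0.044 on the log2 scale, adjusted p = 8.2e-06) and 104 ± 15.8 and 55.4 ± 5.67 CPM in the striatum (-0.90, adjusted p = 0.000397). Ccnd1 fell by 0.57 in the cortex and by 0.68 in the striatum (adjusted p = 0.000219 and 4.2e-05). Their opponents, the CDK inhibitors, fell with them: of the 6 tested, 5 were lower in cortex and 4 in striatum, with Cdkn2a too low to be tested. The cortical count was 4 with any single library other than that of mouse 57 left out. It was also 4 with sex as a covariate, no filter or DESeq2. The striatal count was 4 throughout. Cdkn1a (p21) fell by 0.87 and 0.66 on the log2 scale in cortex and striatum, and Cdkn2d (p19) by 0.33 and 0.44 (adjusted p from 8.8e-05 to 0.000851). Cdkn1b and Cdkn2c were lower in both tissues and Cdkn2b in the cortex, which are named after their values were seen, as are Cdk6 and Cdk2.

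Targets of E2F and DREAM were counted by cell cycle phase. Of 20 mitotic (G2/M) genes, 16 were called lower in cortex, 17 in striatum and none higher in either, where 17.6% and 15.8% of all genes were lower, with median log2 fold changes of -0.55 and -0.69. Together they summed to 135 to 157 CPM in control and 90.0 to 97.4 CPM in Trrap-FBΔ cortex, and to 155 to 195 and 103 to 116 CPM in the striatum. Top2a, the topoisomerase of dividing cells, was 22.8 ± 1.2 CPM in control and 12.2 ± 0.911 CPM in mutant cortex (-0.90 ± 0.071, adjusted p = 1.5e-05) and fell by 0.88 in the striatum (adjusted p = 0.000333). Mki67, the gene of the Ki-67 proliferation antigen, fell by 0.91 in cortex (adjusted p = 2.8e-05). Cenpf, a kinetochore protein gene, fell by 0.76 in striatum (adjusted p = 0.000321). Plk1, Bub1b and Kif20a were not called in either tissue, and Aurka not in the cortex, also named after their values were seen. With 1 library left out at a time, 15 to 16 of the 20 were called lower in the cortex and 17 to 18 in the striatum.

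Of 30 replication (G1/S) genes, 6 were lower and none higher in the cortex, with 9 lower and 1 higher in the striatum, and medians of -0.13 and -0.16. Over all genes, 17.6% were lower and 15.7% higher in the cortex and 15.8% and 14.4% in the striatum, so that the cortical count of lower genes was near that share. In the striatum 7 were lower without mouse 58, 57 or 61, 6 without mouse 64, 59 or 60 or without the filter, and 5 with sex as a covariate. With 1 library left out, 4 to 7 were lower in the cortex. In the cortex 1 was higher without control mouse 55 or 63 or Trrap-FBΔ mouse 60 or 61, and with upper-quartile scaling, no filter or DESeq2. Rrm2, a subunit of ribonucleotide reductase, fell by 0.62 and 0.75 on the log2 scale (adjusted p = 0.000264 and 0.00195). Mcm2, of the replicative helicase, fell by 0.45 in the cortex (adjusted p = 0.00190), as did its partner Mcm3 by 0.45 in the striatum (adjusted p = 0.00388). The gene that rose in the striatum was Dnmt1, the maintenance DNA methyltransferase (0.25, adjusted p = 0.0341), named after its value was seen. Without Trrap-FBΔ mouse 57, 59 or 61 no gene of the list was called higher there, and without control mouse 63 the count was 2. Promoter windows were at hand for 25 of the G1/S and 16 of the G2/M genes. An E2F word was in a window of 18 G1/S genes (72.0%) and 3 G2/M genes (18.8%), beside 10.9% of the 27025 genes in the table. The CHR element was in a window of 11 G2/M genes (68.8%) and 4 G1/S genes (16.0%), beside 20.2% of all genes.

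**Figure D4:**
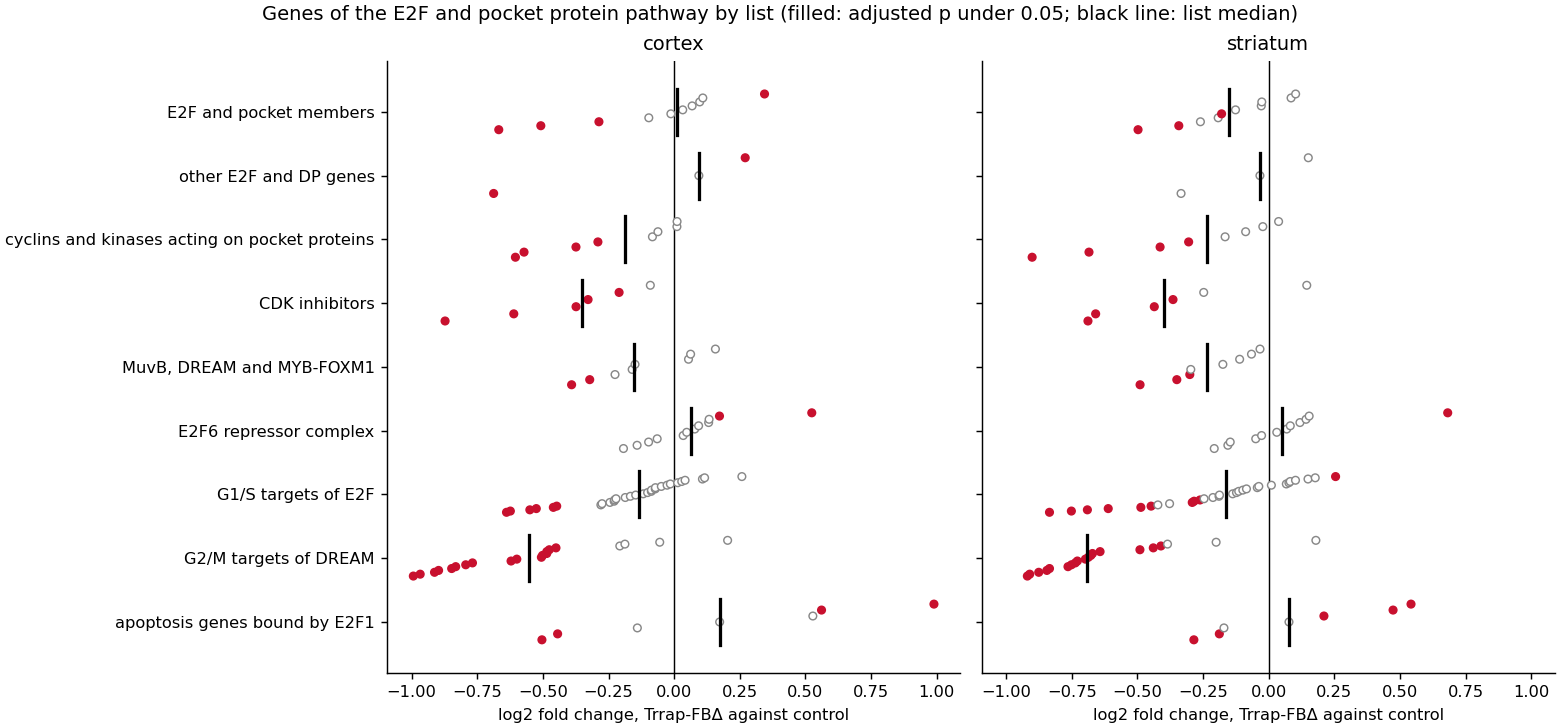
Log2 fold change in Trrap-FBΔ against control of every tested gene in the 9 lists of the pathway, for the cortex (left) and the striatum (right). Each point is a gene, filled where the adjusted p was under 0.05, and black lines are list medians. The G2/M genes lie to the left of 0 nearly as a block, 16 and 17 of 20 filled, whereas most G1/S genes are open and close to 0.

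Other partners of the family were counted in the same way, against the same shares of all genes (17.6% lower and 15.7% higher in cortex, 15.8% and 14.4% in striatum). The counts of the next lists are small, and those of the MuvB and E2F6 lists in the cortex were near these shares. Of 8 genes of the MuvB core, MYB and FOXM1, 2 fell in the cortex (Foxm1 and Lin9) and 3 in the striatum (Foxm1, Lin54 and Lin9), and none rose. Foxm1, the activator of mitotic genes, fell by 0.39 and 0.49 (adjusted p = 0.0133 and 0.00177), Lin9 by 0.32 in cortex (adjusted p = 0.0163) and Lin54 by 0.30 in striatum (adjusted p = 0.00671), all on the log2 scale. Of the 12 genes of the E2F6 repressor complex, 2 rose in cortex, 1 rose in striatum and none was called lower. Ring1, a ubiquitin ligase of Polycomb complexes, rose in both tissues from 23.2 ± 1.25 to 33.4 ± 5.38 CPM in the cortex (0.52 on the log2 scale, adjusted p = 0.00307) and from 26.7 ± 1.78 to 42.8 ± 2.29 CPM in the striatum (0.68, adjusted p = 0.000137). Rnf2, its paralog, rose in cortex (0.17, adjusted p = 0.0375), and Cbx3 was at -0.21 in the striatum (adjusted p = 0.0521). Of 7 apoptosis genes bound by E2F1, 2 rose and 2 fell in the cortex, with 3 and 2 in the striatum. Bcl2l11 (BIM), which promotes cell death, rose by 0.56 and 0.47 (adjusted p = 0.000149 and 0.000812), and Pmaip1 (NOXA) by 0.99 in the cortex (adjusted p = 0.00114). In the cortex, 1 gene of the E2F6 complex was called higher instead of 2 without mouse 58, 63, 64, 59 or 60, with sex as a covariate or with all 16 libraries in a fit, and 3 were without mouse 57 or 61. In that list 1 gene was called lower in the cortex without mouse 57 or with all 16 libraries. In the striatum 2 were called higher without mouse 63 or 61, with upper-quartile scaling or with all 16 libraries, and 1 was called lower without mouse 63 or 59, with DESeq2 or with all 16 libraries. Of the MuvB list, 1 fell in the cortex without mouse 60 and 3 without mouse 55, and 2 fell in the striatum without mouse 57 or 60. Of the apoptosis genes, 1 fell in the cortex without mouse 55 or 64, 4 rose without mouse 57, and 1 fell in the striatum without mouse 58, 63, 64, 59, 60 or 61. In the striatum 2 of them rose without mouse 58, 63, 65, 57, 59 or 60, without the filter or with sex as a covariate. Their median log2 fold change there was between -0.0813 and 0.221 with 1 library left out.

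Finally, the genes whose log2 CPM followed each member most closely over the 16 libraries were listed, as a description that tissue and genotype both enter. For E2f1 these were Akt2 (Pearson's r 0.989), Ift57 and Ephx4 (both 0.987), and for E2f2 Skap2 (0.98), Tor1aip1 (0.958) and Il33 (0.952). E2f3 ran with Kmt2e (0.990), Vldlr (0.976) and Has3 (0.973), and E2f8 with Lbh (0.957), Slc38a2 (0.954) and Cyp51 (0.947). Rbl1 ran with Ccdc82 (0.971), Arhgap18 (0.967) and Tspan6 (0.963), Rb1 with Nppc (0.921), Gng2 (0.918) and Ube2g1 (0.909), and Rbl2 with Scamp1 (0.870), Cdh17 (0.855) and Nt5c2 (0.854). E2f4 ran with Ttyh3 and Gtpbp1 (both 0.963) and Scube1 (0.962), E2f5 with Mmd2 (0.886), Hax1 (0.874) and E130114P18Rik (0.872), and E2f6 with Dlx4 (0.940), Gstt3 (0.927) and Trhr2 (0.926). No member was among the 3 closest genes of another.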

How the data were processed

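RNA of 8 cortices and 8 striata was sequenced as stranded, single-end mRNA libraries. The authors aligned the reads to GRCm38 with STAR 2.5.4b and counted unique reads per Ensembl gene with featureCounts 1.5.0 by strand. The deposited values are these raw counts. Symbols, positions and exon lengths came from GENCODE M21 and promoter windows from RefSeq (GRCm38.p6). Differences were fitted to the counts by edgeR 4.0.16 under R 4.3.3, by its quasi-likelihood method (filterByExpr, TMM, Benjamini-Hochberg over all genes tested, threshold 0.05), tissue by tissue, between tissues within each genotype, and with an interaction term over all 16 libraries. DESeq2 1.42.0, the authors' tool, other scalings, no filter, sex, the mouse as a block and each library left out were alternatives. Levels are CPM with TMM factors over all 16 libraries. Intervals are 95% from the edgeR fit, and SE is the log2 fold change over the square root of F. Strand-specific counting separates members from opposite-strand neighbours, and no same-strand gene shares exons with a member. No pair of libraries of a group agreed within sampling noise.

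Named genes are the 10 members, Trrap, E2f7, Tfdp1 and Tfdp2, the 2 smallest p-values of each other list in each tissue and the 3 best-correlated genes of each member (log2 CPM with a pseudocount of 0.1). A gene that this rule would name is not reported here. The members and lists were chosen with earlier results of these data known. Libraries of 1 mouse are paired by the labels: deviations from group means correlated at 0.0731 to 0.25 for the 7 mice with both tissues and at -0.184 to 0.128 between mice (18742 genes). The fits were tested on simulated counts. Lists of genes were described by counts and medians, with no test of the list.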

Additional observations from a re-analysis of the deposited data

Results flagged for a closer look

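In 3 groups of 4 libraries, 1 library of a member stood apart by more than Dixon's 95% critical value, which chance does in about 1 of 20 groups. With 10 members in each of the 4 groups, some such cases are due by chance. Rbl1 was at 7.53 CPM in the control cortex of mouse 55, above the other 3 controls, and without that library its fall in the cortex was still called. Rbl2 was at 58.4 CPM in the Trrap-FBΔ cortex of mouse 59. E2f3 was at 24.2 CPM in the Trrap-FBΔ striatum of mouse 61, in a group whose whole range was under 1 CPM.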

How the results depend on the processing

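Over all alternatives, the members stayed on the same side of the threshold in 749 cases, lost a call in 27 and gained one in 4, and no called value changed sign. Many of the 749 had no call to lose, among them all 220 of the interaction comparison. Between genotypes, a call was lost in 6 cases in the cortex (E2f2) and in 12 in the striatum (E2f5 and E2f8). The signs of values that were not called, such as E2f5 in the cortex, did change in some. The number of members called lower or higher in the striatum was 1 (E2f3) instead of 3 with sex as a covariate. The number of genes with a different genotype effect in the tissues was 195 without the filter, 415 with DESeq2 and 219 with the replicate block, instead of 85, and 18 to 151 with each library left out. In that comparison 0 members were called under any alternative. The block of paired tissues changed no call of a member in the comparisons it entered. Trrap passed the threshold in the cortex without the filter (adjusted p = 0.0460), with all 16 libraries in a fit (0.0465) and without control mouse 63 (0.0336), edgeR. Upper-quartile scaling added Rbl2 in the control tissue comparison (adjusted p = 0.0302) and E2f8 and Rbl2 in that of Trrap-FBΔ (0.0412 and 0.0253). E2f8, with 64 to 126 reads per cortical library, had an SE of 0.13 on the log2 scale there. List counts were redone after seeing the data in the same fits.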

Other observations

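Over all genes tested, 17.6% were called lower and 15.7% higher in the cortex, and 15.8% and 14.4% in the striatum. Of 8 astrocyte markers, Gfap and Gja1 rose in both tissues, Aqp4 and Aldh1l1 fell in the cortex and Slc1a2 in the striatum. These counts moved with single libraries: in the cortex, 0 astrocyte markers were called higher without control mouse 63 or 64, 1 was without mouse 58, 57, 59 or 60 or with sex as a covariate, and 1 instead of 2 was called lower without mouse 55, 58, 63, 64, 59 or 60, with upper-quartile scaling, no filter or all 16 libraries in a fit. In the striatum 1 was called higher without mouse 64, 57, 59 or 60. Gfap rose by 0.28 on the log2 scale in the cortex (adjusted p = 0.0206, edgeR) and by 0.57 in the striatum (adjusted p = 0.000246, edgeR). Of 6 interneuron markers, Sst rose in the cortex (0.42, adjusted p = 0.00612, edgeR), and Pvalb and Calb2 fell in the striatum, where no interneuron marker was called with sex as a covariate, with all 16 libraries in a fit or without mouse 58, 65 or 57, and 1 was without mouse 60 or 61. Of 8 excitatory neuron markers, 2 fell in the cortex and 4 in the striatum (Slc17a7, Neurod6, Neurod2 and Tbr1), and none was higher. The striatal count was 1 without mouse 61, 2 without mouse 58 or 59 and at most 5 with another library left out, and 6 with all 16 libraries in a fit. In the cortex 1 was called higher without mouse 64 or without the filter. None of the 8 striatal projection neuron, 6 red blood cell and 4 choroid plexus markers was called between genotypes in either tissue, and their medians in the striatum were -0.54, -0.026 and 0.57 on the log2 scale. Without control mouse 58, 4 striatal projection neuron markers were called lower in the striatum (median -0.85), and without control mouse 64 none was, with a median of 0.056. In the cortex, 1 of them was called lower without mouse 55 or without the filter, and 4 red blood cell markers without mouse 57. In the striatum, 1 red blood cell marker was called lower with sex as a covariate, and 1 choroid plexus marker higher without mouse 61. These genes were named after their values were seen.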
